A study of Heterocephalus glaber with 215 samples.

Results

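The 8 genes GREB1, KLK1, PEG10, AFF2, PRRG1, BHMT, DPEP1 and PKNOX2 were followed in the adrenal gland of reproductive and non-reproductive naked mole-rats (NMRs), and then in the other tissues of the same animals. They are 8 of the 16339 genes of the count table and were taken by name. They had been chosen by their adrenal counts in breeders and non-breeders, so their values in all 4 adrenal comparisons are a description, without a p-value. Tests of the 8 genes are given in the other tissues and between tissues, and tests of other genes in adrenal. In NMR colonies reproduction is left to a queen and few males. The animals were 6 breeding females (BF, 3.3 to 3.7 years old), 6 non-breeding females (NF, 2.4 to 4.0 years), 6 breeding males (BM, 2.8 to 4.1 years) and 6 non-breeding males (NM, 2.7 to 4.1 years). Breeding status goes with leaving the colony of birth for a mate from elsewhere, which the non-breeders, siblings of the breeders, had not done, and these cannot be told apart. BM were taken days after a birth and BF weeks after their last pregnancy, once the mate was gone, so sex among breeders, time since birth and loss of the mate cannot be told apart either. The BF did not all have the same record of litters, and litter and colony of origin entered no test.

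The adrenal gland has a cortex, which makes corticosteroids, around a medulla, which makes catecholamines. GREB1 is an estrogen-induced gene whose product is a cofactor of the estrogen receptor in human breast cells. KLK1 is tissue kallikrein, a serine protease that releases kinins from kininogen. PEG10 is a gene derived from a retrotransposon and is expressed from the paternal allele in human and mouse. AFF2 belongs to the AFF family of transcription elongation factors, and PRRG1 is a transmembrane protein with a vitamin K-dependent Gla domain. Both AFF2 and PRRG1 lie on the X chromosome in human. BHMT transfers a methyl group from betaine to homocysteine, DPEP1 is a membrane dipeptidase that splits cysteinylglycine and leukotriene D4, and PKNOX2 is a TALE homeobox transcription factor.

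The 24 adrenal libraries held between 10125481 and 19184841 counts (median 14.24 megareads). The lowest number of reads behind an adrenal value was 17 for KLK1, 26 for GREB1, 47 for AFF2, 58 for PKNOX2, 80 for DPEP1, 245 for PRRG1, 1489 for BHMT and 1671 for PEG10. Levels are in CPM, counts per megareads of the scaled library, and can be compared between groups and tissues but not between genes of different length. Each value is from 1 library of 1 animal. An error after ± is the SE of a log2 fold change from the edgeR fit, its size over the square root of the F statistic. It is an error of the model and not the spread between animals itself. The label of the tissue was checked against markers. STAR, the cholesterol carrier of steroid synthesis, lay between 9602 and 15221 CPM, against a kidney median of 0.33 CPM. The 20 cortex markers summed to between 39785 and 57474 CPM and the 13 medulla markers to between 2656 and 16986 CPM. Of these, CYP11B1 (1.2 to 14.2 CPM) and PNMT (1.7 to 5.5 CPM) were low, while CYP11B2, the other CYP11B entry of the cortex list, lay between 3400 and 5712 CPM. The sex label was checked with KIF4A, a gene chosen after its values were seen, which lay between 0.0786 and 2.71 CPM in adrenals of females, against 35.3 to 58.8 CPM in adrenals of males. In thyroid the libraries labelled NF_3605 (19.7 CPM) and NM_3295 (0.277 CPM) went against their labels, since the other 11 thyroids of females had at most 3.08 CPM and those of males at least 19.0 CPM.

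In the adrenal, GREB1, KLK1, PEG10, AFF2, PRRG1 and BHMT were higher in BF than in all 3 other groups, and DPEP1 and PKNOX2 were lower. All 8 genes passed the filter on low counts in the 4 comparisons. Between BF and BM the 2 groups of libraries did not overlap for any of the 8 genes, against 3.38% of 12609 genes averaging 1 CPM or more. Between BF and NF they were apart for 2 genes (background 1.28%), between BM and NM for 1 (background 0.397%) and between NF and NM for 0 (background 1.08%). At an adjusted p below 0.01 all 8 were among the 56 genes that edgeR called between BF and BM (0.429% of 13049 genes; 0.337% were higher in BF, with 6 of the 8, and 0.092% lower, with 2). None of the 8 was called between BF and NF, where the edgeR count was 0 (0%; unadjusted p below 0.05 for 1532 genes; DESeq2 count 125), between BM and NM, where it was 0 again (0%; 914 genes unadjusted, 13 by DESeq2), or between NF and NM (0.023%). Since these values chose the genes, nothing is read from those counts. The total for BF against BM also turned on single animals, with 3 genes without BM_1400 or BM_3274, between 4 and 22 without any other animal but BF_6841 and 117 without BF_6841. It was 5 without BF_1090 and BF_1816 and 1 with the summed medulla markers as a covariate, both settings chosen after seeing the data.

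**Figure D1:**
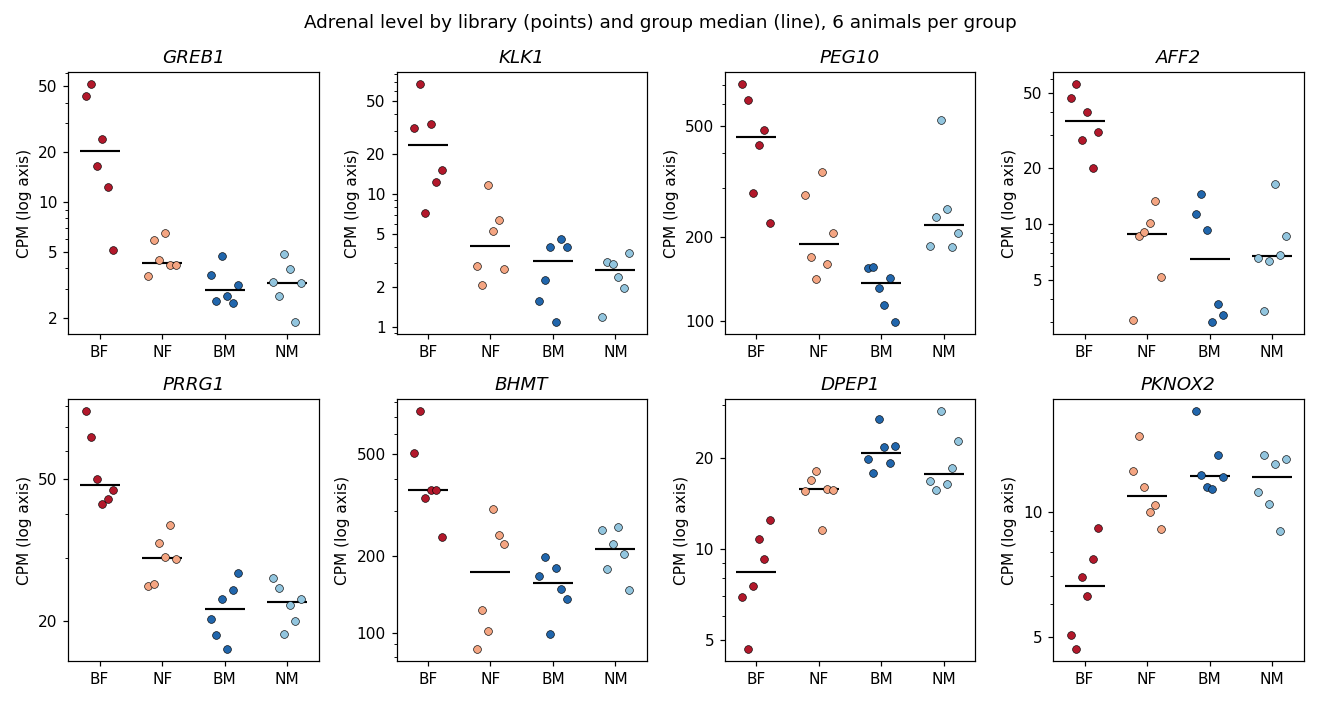
Adrenal level in CPM (log axis) of the 8 genes in each library (points, 6 per group) with the group median (line), for BF, NF, BM and NM. For every gene the BF points lie clear of the BM points, whereas for GREB1 the lowest BF (5.16 CPM) falls among the NF (3.58 to 6.52 CPM).

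GREB1, the estrogen-induced cofactor, measured 12.3, 16.5, 24.04, 43.8 and 51.9 CPM in 5 BF and 5.16 CPM in the sixth, BF_6841. Its level was 3.58 to 6.52 CPM in NF (median 4.32), 2.48 to 4.73 CPM in BM (median 2.94) and 1.89 to 4.86 CPM in NM (median 3.27). Thus 5 of 6 BF lay above every NF, all BF lay above every BM, and BF_6841 lay within the NF range. The log2 fold change was 2.42 ± 0.47 (SE) for BF against NF and 2.98 ± 0.48 for BF against BM. For BM against NM it was -0.06 ± 0.22 and for NF against NM 0.51 ± 0.22.

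KLK1, the kinin-releasing protease, ranged from 7.18 to 67.9 CPM in BF (median 23.4), against 2.05 to 11.8 CPM in NF (median 4.06), 1.08 to 4.61 CPM in BM (median 3.11) and 1.18 to 3.58 CPM in NM (median 2.66). BF_1816 stood highest, and BF_4121 at 7.18 CPM was the 1 BF below the top NF, NF_2969, with 11.8 CPM. On the log2 scale BF differed from NF by 2.44 ± 0.56 and from BM by 3.26 ± 0.54. It was 1.02 ± 0.41 for NF against NM, and 0.59 without NF_2969. Of the 8 genes KLK1 had the widest spread within the BF, with a coefficient of variation of 79.6%.

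PEG10, the imprinted retrotransposon-derived gene, ranged from 226 to 709.6 CPM in BF (median 457), against 142 to 344 CPM in NF (median 189). In males the order of status was the other way. PEG10 ranged from 99.3 to 157 CPM in BM (median 137), against 184 to 527 CPM in NM (median 222), and the 2 male groups did not overlap. In log2 fold change this was 1.09 ± 0.29 for BF against NF, -1.004 ± 0.242 for BM against NM and 1.79 ± 0.25 for BF against BM. The highest male, NM_3295 with 527 CPM, stood apart from the other NM, and without it the value for BM against NM was -0.69, with the groups still apart. For NF against NM the log2 fold change was -0.30 ± 0.29, and 0.018 without NM_3295.

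AFF2, the elongation factor, ranged from 19.9 to 56.3 CPM in BF (median 35.6), against 3.06 to 13.3 CPM in NF (median 8.89), 2.99 to 14.5 CPM in BM (median 6.50) and 3.45 to 16.4 CPM in NM (median 6.72). Every BF lay above every library of the other 3 groups. BF differed by 2.18 ± 0.33 from NF and by 2.31 ± 0.39 from BM in log2 fold change. The value was -0.11 ± 0.45 for BM against NM and 0.03 ± 0.37 for NF against NM.

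PRRG1, the transmembrane Gla protein, was the least variable of the 6 higher genes within the BF, with a coefficient of variation of 25.9%. It ranged from 42.6 to 77.7 CPM in BF (median 48.3), against 25.1 to 37.3 CPM in NF (median 30.0), 16.7 to 27.3 CPM in BM (median 21.7) and 18.4 to 26.5 CPM in NM (median 22.7). Every BF was again above every other library, and 4 of 6 NF lay above all NM. Log2 fold changes were 0.85 ± 0.16 for BF against NF, 1.32 ± 0.17 for BF against BM and 0.41 ± 0.11 for NF against NM.

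BHMT, the betaine-dependent methyltransferase, ranged from 236 to 739 CPM in BF (median 363), against 85.9 to 306 CPM in NF (median 173), 98.3 to 197 CPM in BM (median 157) and 147 to 261 CPM in NM (median 213). The 1 BF below the top NF was BF_6841. Log2 fold changes were 1.24 ± 0.34 for BF against NF, 1.46 ± 0.24 for BF against BM and -0.46 ± 0.17 for BM against NM.

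For the 2 lower genes the lowest number of reads was 80 (DPEP1) and 58 (PKNOX2), more than for KLK1 (17), GREB1 (26) and AFF2 (47) among the higher genes. DPEP1, the membrane dipeptidase, ranged from 4.65 to 12.5 CPM in BF (median 8.39), against 11.6 to 18.1 CPM in NF (median 15.7), 17.8 to 26.9 CPM in BM (median 20.8) and 15.6 to 28.6 CPM in NM (median 17.7). PKNOX2, the homeobox factor, ranged from 4.65 to 9.16 CPM in BF (median 6.63), against 9.09 to 15.3 CPM in NF (median 10.9), 11.4 to 17.6 CPM in BM (median 12.2) and 9.02 to 13.8 CPM in NM (median 12.1). For both genes 5 of 6 BF lay below every NF, and the exception was BF_6841. For DPEP1 the log2 fold change was -0.86 ± 0.20 for BF against NF and -1.31 ± 0.19 for BF against BM. That of PKNOX2 was -0.79 ± 0.18 for BF against NF and -0.98 ± 0.17 for BF against BM. For BM against NM the values were 0.09 ± 0.15 for DPEP1 and 0.14 ± 0.14 for PKNOX2.

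**Figure D2:**
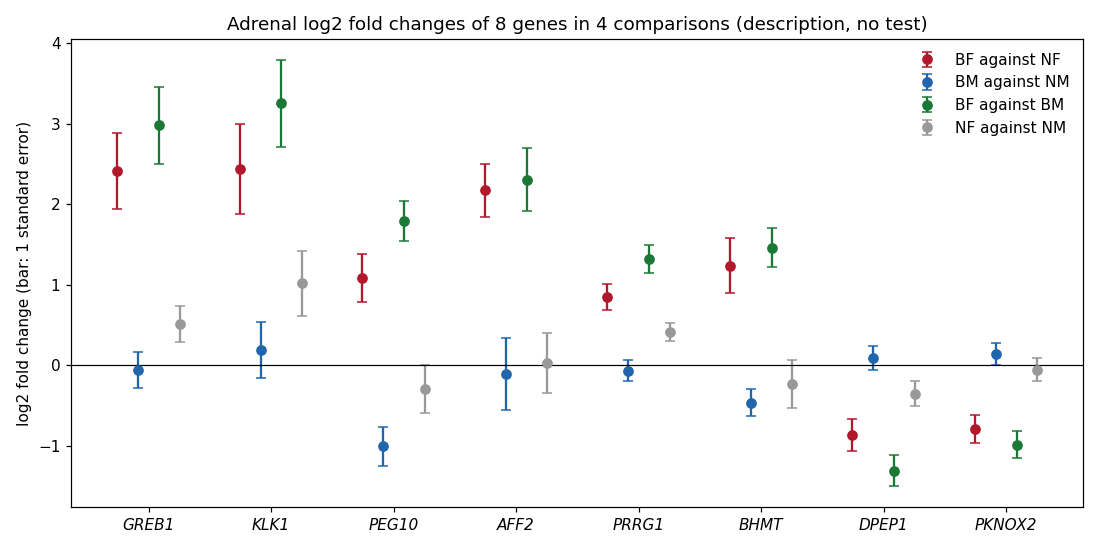
Adrenal log2 fold changes (points) with 1 SE (bars) of the 8 genes for BF against NF, BM against NM, BF against BM and NF against NM. Values for BF against BM exceed those for BF against NF in size for all 8 genes, and PEG10 is the gene with the largest value for BM against NM (-1.004). The BF libraries serve in 2 of the comparisons, so these are not independent of each other.

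The same BF tended to stand high or low across the genes. BF_1816 ranked first or second among the 6 BF in all 6 higher genes and had the lowest DPEP1 and PKNOX2. BF_1090 ranked first or second in 5 of the 6 higher genes. BF_6841 had the lowest GREB1, PEG10 and BHMT and the highest DPEP1 and PKNOX2. These 3 animals were 3.6, 3.7 and 3.3 years old. Without both BF_1090 and BF_1816, a setting chosen after seeing the data, the log2 fold change for BF against NF was 1.57 for GREB1, 1.71 for KLK1, 0.69 for PEG10, 1.83 for AFF2, 0.58 for PRRG1 and 0.83 for BHMT, and it was -0.66 for DPEP1 and -0.63 for PKNOX2.

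**Figure D3:**
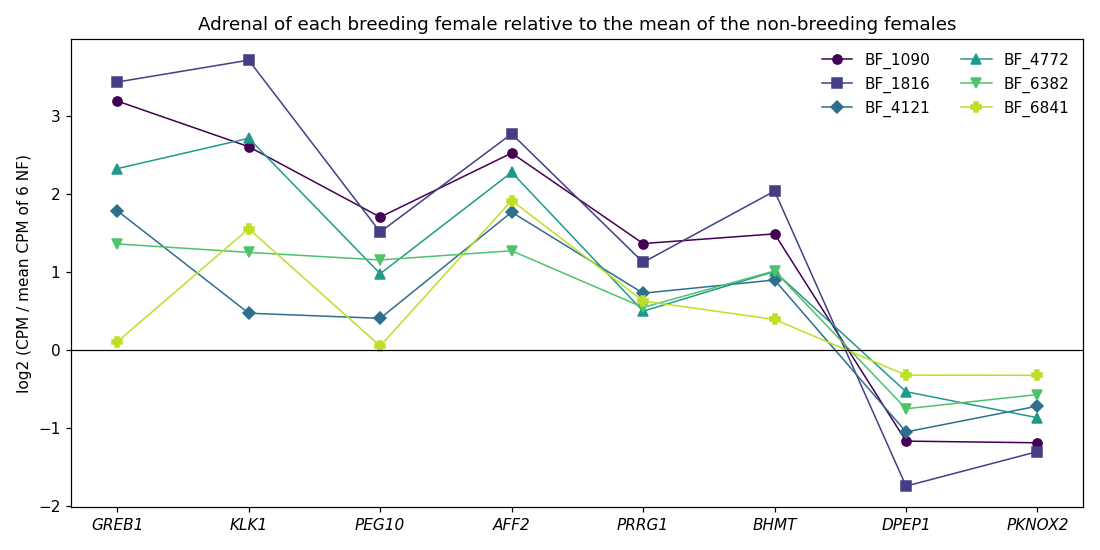
Adrenal level of each of the 6 BF (lines) as log2 of its CPM over the mean CPM of the 6 NF, for the 8 genes. BF_1816 and BF_1090 lie at the outer edge for most genes, and BF_6841 lies near 0 for GREB1 and PEG10.

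Across the 6 BF libraries, Pearson's r of log2 CPM between GREB1 and each of the other 7 genes was 0.71 with KLK1, 0.72 with PRRG1, 0.74 with AFF2, 0.86 with PEG10, 0.93 with BHMT, -0.82 with DPEP1 and -0.99 with PKNOX2. In the 18 libraries of the other groups, as deviations from the group means, the same 7 values lay between -0.00 (PRRG1) and 0.42 (PEG10). The closest pair there was KLK1 and PRRG1 at 0.59, and BHMT and DPEP1 ran against each other at -0.50. The points of 1 group share tissue, sex and status, and the values are a description over few animals.

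The genes most like each of the 8 over the 24 adrenal libraries, by Pearson's r of log2 CPM, were taken from 12601 genes averaging 1 CPM or more. For GREB1 these were ZMIZ2 (r = 0.948), MRPS26 (0.920) and GALC (0.916). ZMIZ2 averaged 152 CPM in BF, against 71.7 CPM in NF, 72.4 CPM in BM and 73.2 CPM in NM, and as deviations from group means its r with GREB1 was 0.890. For KLK1 they were C14orf132 (0.874), TANK (0.874) and SH3BGRL3 (0.871), of which C14orf132 averaged 302 CPM in BF, against 73.2 CPM in NF, 71.5 CPM in BM and 64.2 CPM in NM. For PEG10 they were BIN1 (0.822), ATP13A3 (0.808) and KDM4B (0.796), and for AFF2 SRPX (0.869), CCDC6 (0.857) and TXNDC5 (0.821).

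PRRG1 was most like ABCC4 (0.851), PANK3 (0.847) and CCDC6 (0.846), and BHMT like TXNDC5 (0.841), BBX (0.840) and MCCC1 (0.816). CCDC6 and TXNDC5 each appeared for 2 of the 8 genes. DPEP1 was most like ABCC1 (0.863), KIAA0556 (0.850) and CACNA1H (0.846), and PKNOX2 like SGSM2 (0.846), SLC41A2 (0.844) and ITGA11 (0.823). CACNA1H, a T-type calcium channel subunit, averaged 6.84 CPM in BF, against 11.8 CPM in NF, 15.6 CPM in BM and 21.6 CPM in NM. All these r are over libraries that differ by group, so a shared difference of BF raises them.

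Of the neighbours in the gene order of the RefSeq table of a newer assembly, in which 7 of the 8 genes were found, SGCE next to PEG10 is also imprinted in human and mouse. SGCE averaged 296 CPM in BF, 277 CPM in NF, 256 CPM in BM and 285 CPM in NM, a narrower range than that of PEG10, with an r of 0.71 over the 24 libraries. E2F6 beside GREB1 averaged 53.2 CPM in BF and 44.5 to 47.3 CPM in the other groups. IDS beside AFF2 averaged 224 CPM in BF and 208 to 213 CPM elsewhere, and FMR1NB on its other side was at 0 in every adrenal library. KLK15 next to KLK1 and NTSR2 next to GREB1 were at most 0.28 CPM on average. CHMP1A and RPL13 beside DPEP1 averaged 205 and 680.3 CPM in BF, against 217 and 572 CPM in NF. TMEM218 and FEZ1 beside PKNOX2 averaged 9.91 and 87.2 CPM in BF, against 10.9 and 101 CPM in NF.

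Lists of genes that share a pathway or family with the 8 were read in the same fits. The 9 lists covered estrogen-responsive genes, steroid hormone receptors, kallikreins and kinins, imprinted genes, the methionine and betaine cycle, glutathione turnover, the AFF family with its elongation complex, Gla proteins and TALE homeobox genes. For BF against BM, edgeR called 0 of their 110 genes tested (counting a gene in each list that holds it), with 12 higher and 18 lower at an unadjusted p below 0.05. For BF against NF it called 0 of 108, with 8 higher and 6 lower unadjusted. Over all genes, 1429 of 13049 were higher and 1382 lower at that threshold for BF against BM. For BF against NF 720 of 12931 were higher and 812 lower. DESeq2 called 10 genes of the pathway and marker lists together for BF against BM and 4 for BF against NF. Its totals over all genes stand in the closing section, without the number it tested, so nothing is read from these counts. The list medians of the log2 fold change lay between -0.29 and 0.05 for BF against BM and between -0.13 and 0.09 for BF against NF, beside a median over all genes of 0.000 and 0.005.

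For the 14 estrogen-responsive genes tested the median for BF against NF was 0.09, with 10 of 14 positive and 0 called. For BF against BM 15 were tested, with a median of -0.05, 7 positive and 0 called. At an unadjusted p below 0.05, 4 of these were higher and 2 lower in BF, beside 1429 and 1382 of 13049 genes. ESR1, the estrogen receptor alpha gene, named after its values were seen, had a log2 fold change of 0.46 ± 0.37 for BF against NF and 0.60 ± 0.29 for BF against BM (edgeR, adjusted p = 0.676 and 0.256). PGR, the progesterone receptor gene, also named after its values were seen, went the other way for BF against BM (-0.81 ± 0.35, edgeR, adjusted p = 0.204). Of the methionine and betaine cycle, 0 of 17 genes were called in either comparison. The 4 with an unadjusted p below 0.05 for BF against BM, also named after their values were seen, had log2 fold changes of both signs. These were 0.44 ± 0.15 for BHMT2, the paralog of BHMT, 0.16 ± 0.06 for MTR, the methionine synthase, -0.66 ± 0.18 for CHDH, which oxidizes choline on the way to betaine, and -1.69 ± 0.48 for SARDH, the sarcosine dehydrogenase (adjusted p = 0.107, 0.146, 0.0614 and 0.0708).

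Markers of other cell types were set beside the 8 genes. The 13 medulla markers summed to 3424 to 8174 CPM in BF and 6218 to 16986 CPM in BM, against 2656 to 12881 CPM in NF and 3670 to 9213 CPM in NM. All 13 had a negative log2 fold change for BF against BM (median -0.88, 10 with an unadjusted p below 0.05, 0 called) and all 13 a positive one for BF against NF (median 0.18, 0 with an unadjusted p below 0.05). With the log2 of this sum as a covariate, chosen after seeing the data, the log2 fold changes for BF against BM were 3.09 for GREB1, 3.79 for KLK1, 1.74 for PEG10, 2.11 for AFF2, 1.67 for PRRG1, 1.496 for BHMT, -1.51 for DPEP1 and -1.13 for PKNOX2. The 10 fibroblast and capsule markers summed to 350.2 to 596 CPM in BF, against 578 to 743 CPM in NF, with a median of -0.48 and 5 of 10 lower at an unadjusted p below 0.05. The 8 adipose markers summed to 65.1 to 399 CPM in BF, against 48.4 to 617 CPM in NF, and to 105 to 429 CPM in BM, against 229 to 503 CPM in NM. Of these, 7 were tested in BF against NF and in BF against BM, with medians of -0.69 and -0.50 and 0 with an unadjusted p below 0.05 in both. Over all genes, 1382 of 13049 were lower at an unadjusted p below 0.05 for BF against BM, and 812 of 12931 for BF against NF. The part of these cell types in the values of the 8 genes was not tested. Fewer cells of a type and less RNA per cell cannot be told apart in whole tissue.

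KLK1, BHMT, AFF2 and DPEP1 are all high in kidney, which lies beside the adrenal. The 15 kidney markers summed to 157 to 283 CPM in adrenal of BF, 135 to 173 CPM in NF, 164 to 204 CPM in BM and 151 to 241 CPM in NM, against 28979 to 50414 CPM in kidney itself. UMOD, the most abundant of them in kidney (median 21844 CPM), averaged 0.46 CPM in adrenal of BF, against 2.82 CPM in NF, 0.63 CPM in BM and 3.27 CPM in NM. SLC12A1 and AQP2 were each at 0 in 4 adrenal libraries. CUBN, SLC5A2 and LRP2 made up most of the adrenal sum, and LRP2 averaged 52.5 CPM in BF, against 22.2 CPM in NF, 21.95 CPM in BM and 21.01 CPM in NM. The part of kidney RNA in the values of the 8 genes was not tested.

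Levels over the 10 tissues were compared next, with the adrenal values that chose the genes on 1 side of each comparison. Adrenal was set against each of the 9 other tissues of the same animals (24 animals, 22 for cerebellum, 11 for ovary and 12 for testis) with edgeR at an adjusted p below 0.01. Of 72 values 62 were called, 46 with adrenal higher and 16 with adrenal lower. That was all 8 genes against kidney (83.9% of all genes called) and thyroid (81.2%), 7 of 8 against heart (85.4%), skin (81.6%), hypothalamus (89.2%), pituitary (82.9%) and testis (71.9%), 6 of 8 against cerebellum (87.7%) and 5 of 8 against ovary (67.8%). These shares are close to the backgrounds. By direction, between 30.8% (ovary) and 45.8% (heart) of all genes were called higher in adrenal. Between 37% (ovary) and 44% (hypothalamus) were called lower. The BF adrenal values that chose the genes enter the split of 46 and 16, so nothing is read from it. In NF and NM alone, without the breeders' values, 60 of 72 were called. Calls lost there were those of GREB1 against heart (0.055, adjusted p = 0.801), KLK1 against cerebellum (0.47, adjusted p = 0.101), PKNOX2 against testis (-0.44, adjusted p = 0.0239) and KLK1 against hypothalamus, and AFF2 against cerebellum and PRRG1 against testis were gained. Without the thyroid and adrenal libraries of NF_3605 and NM_3295, a setting chosen after seeing the data, all 8 genes were again called between adrenal and thyroid. Since tissues of 1 animal are paired by design, a fit that took the animal as block was also made. It too gave 62 calls, but GREB1 against heart and KLK1 against hypothalamus were no longer called (0.57, adjusted p = 0.0288, and 0.39, adjusted p = 0.216) and PKNOX2 against skin and PRRG1 against ovary were (1.34, adjusted p = 0.000331, and 0.41, adjusted p = 0.0044).

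**Figure D4:**
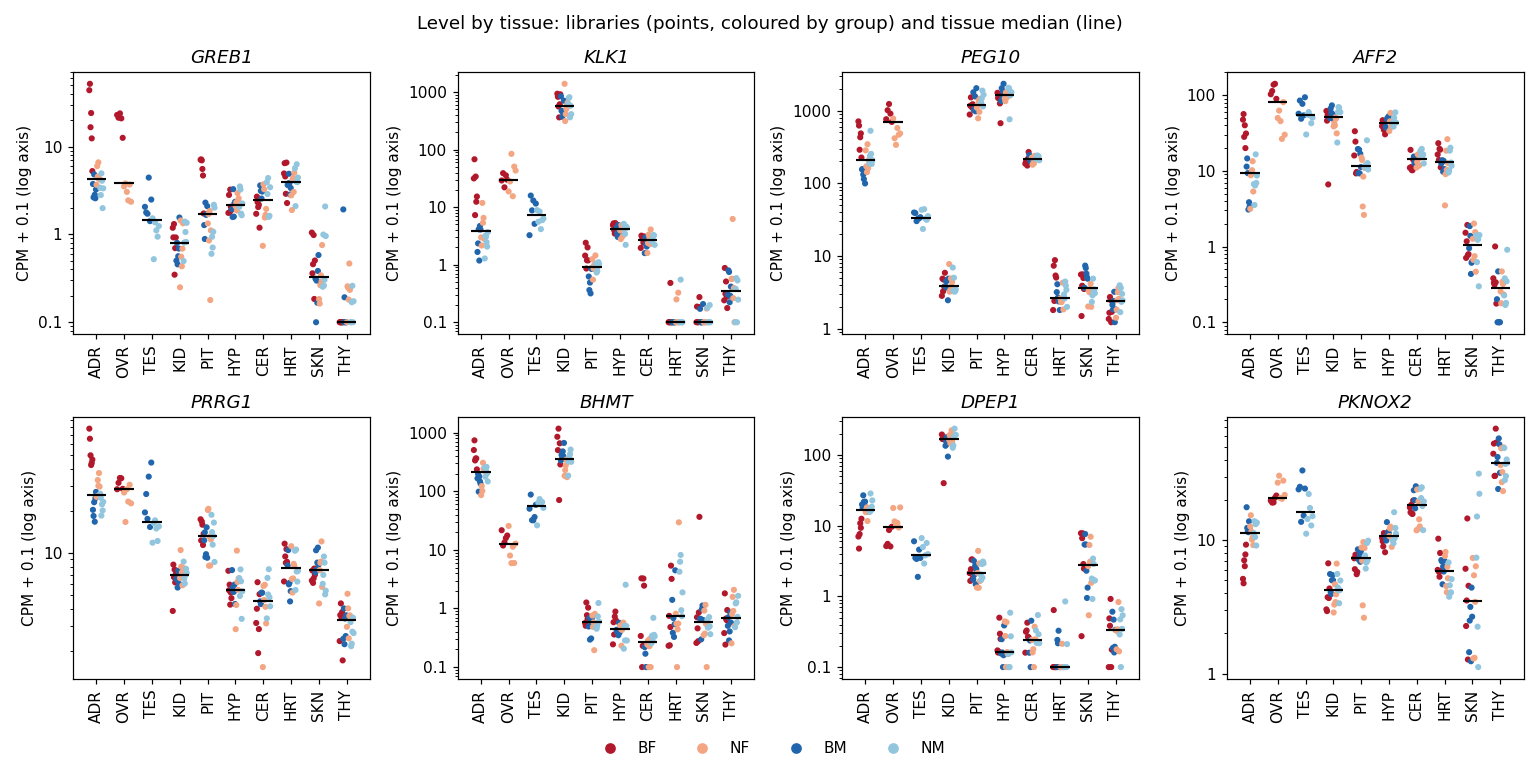
Level of the 8 genes in each library of 10 tissues (points coloured by group, CPM plus 0.1 on a log axis) with the tissue median (line), in adrenal (ADR), ovary (OVR), testis (TES), kidney (KID), pituitary (PIT), hypothalamus (HYP), cerebellum (CER), heart (HRT), skin (SKN) and thyroid (THY). KLK1, BHMT and DPEP1 peak in kidney, PEG10 in hypothalamus and PKNOX2 in thyroid, and in adrenal most BF points lie above the rest for GREB1, KLK1 and AFF2.

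KLK1, BHMT and DPEP1 had their highest median in kidney. KLK1 was at 580.5 CPM in kidney and 29.8 CPM in ovary, 2 tissues whose ranges did not overlap, then at 7.26 CPM in testis, 4.09 CPM in hypothalamus, 3.78 CPM in adrenal and 2.57 CPM in cerebellum, where each tissue overlapped the next. Against kidney the adrenal log2 fold change of KLK1 was -6.04 ± 0.40 (adjusted p = 1.08e-19). The call of KLK1 as higher in adrenal than in hypothalamus (1.26 ± 0.35) was lost in non-breeders alone, where the value was -0.028 (adjusted p = 0.923). With voom on all animals the call was lost as well (0.30, adjusted p = 0.369). Mean KLK1 was 28.0 CPM in adrenal and 4.31 CPM in hypothalamus of BF, but 2.92 CPM in adrenal and 3.80 CPM in hypothalamus of BM. BHMT was at 356 CPM in kidney and 213 CPM in adrenal, with overlapping ranges, and the adrenal value was -0.79 ± 0.22 on the log2 scale (adjusted p = 0.000955). BHMT followed at 55.3 CPM in testis and 12.7 CPM in ovary and was at or below 0.64 CPM in the other 6 tissues. DPEP1 was at 169 CPM in kidney, apart from 16.6 CPM in adrenal (-3.34 ± 0.15), and at 9.58 CPM in ovary, 3.79 CPM in testis and 2.68 CPM in skin.

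The kidney library of BF_4772 stood apart for 4 of the genes. It had 6.53 CPM of AFF2, 70.7 CPM of BHMT and 40.0 CPM of DPEP1, below all 23 other kidney libraries (lowest 23.6, 174 and 95.2 CPM), and 6.61 CPM of PKNOX2, above all of them (highest 6.58 CPM). In the same library the proximal tubule transporters SLC34A1 (700.5 CPM, others at least 1981 CPM), LRP2 (487 CPM, others at least 1192 CPM) and SLC22A6 (113 CPM, others at least 244 CPM) were lowest, and AQP2, the collecting duct water channel, was highest (4733 CPM, others at most 3284 CPM). Their part in the values of the 4 genes was not tested. Without the kidney and adrenal of this animal, a setting chosen after seeing the data, the 8 genes were again all called between adrenal and kidney.

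PEG10 had its highest medians in hypothalamus (1627 CPM) and pituitary (1210 CPM), whose ranges overlapped, then in ovary (698 CPM), cerebellum (215 CPM), adrenal (207 CPM) and testis (33.4 CPM), and it was between 2.27 and 3.74 CPM in kidney, skin, heart and thyroid. Adrenal and cerebellum overlapped, and their difference was not called (0.37 ± 0.17, adjusted p = 0.0340), while adrenal lay below hypothalamus (-2.59 ± 0.19), pituitary (-2.29 ± 0.18) and ovary (-1.21 ± 0.27). AFF2 was highest in ovary (81.0 CPM), followed by testis (54.8 CPM), kidney (51.6 CPM) and hypothalamus (43.1 CPM), all above adrenal (9.18 CPM). The ovary medians mix BF and NF. They fell on the lowest BF value for PEG10 and the highest NF value for AFF2. In NF and NM adrenals AFF2 stayed at a median of 7.72 CPM. PKNOX2 was highest in thyroid (37.8 CPM, adrenal 11.3 CPM, log2 fold change -1.89 ± 0.13).

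GREB1 and PRRG1 were the genes for which no tissue was called above adrenal. GREB1 had medians of 4.17 CPM in adrenal, 3.87 CPM in heart and 3.71 CPM in ovary, with overlapping ranges, and the adrenal value against ovary was 0.07 ± 0.54 (adjusted p = 0.909). The ovary median of GREB1 was the highest NF value, and BF and NF did not overlap there. In non-breeders alone the adrenal and heart levels of GREB1 were 0.055 apart on the log2 scale (adjusted p = 0.801). In thyroid 14 of 24 libraries had 0 reads of GREB1. PRRG1 had medians of 28.5 CPM in ovary, 25.96 CPM in adrenal, 16.7 CPM in testis and 13.0 CPM in pituitary, and at most 7.69 CPM elsewhere. The adrenal median covers both sexes. In the females with both tissues the adrenal value against ovary was 0.47 ± 0.17 (edgeR, adjusted p = 0.0152).

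Status was then compared in each tissue other than adrenal. Of 64 values for BF against NF, 49 passed the filter on low counts, and edgeR called 1, GREB1 in ovary, where 0.445% of 13717 genes were called (0.335% higher and 0.109% lower in BF). In thyroid 1.57% of genes were called (1.38% lower in BF), none of the 8 among them, and in the other 6 tissues edgeR called none. Of 64 values for BM against NM, 49 passed and 0 were called, in comparisons where no gene was called in any tissue. At an unadjusted p below 0.05 there were 9 of 49 values for BF against NF (18.4%), against 9.4% of all values tested in these tissues. Of the 9, 6 were in ovary, where the share over all genes was 15.9%. For BM against NM there were 8 of 49 (16.3%), against 11.3% of all values. Of the 8, 4 were in testis, where that share was 36.6%. DESeq2 called 5 and 1, and voom 1 and 0. The shares over all genes are those of edgeR. They were not computed for DESeq2 and voom in these tissues, so nothing is read from the counts of these 2 tools. The values that did not pass the filter were those of BHMT, DPEP1, KLK1, GREB1 and AFF2 in tissues where their medians were low (highest 0.64 CPM, BHMT in heart). Single libraries there were higher, such as BHMT in skin of BF_6841 (36.5 CPM) and heart of NF_4060 (29.4 CPM), and KLK1 in thyroid of NF_2969 (6.13 CPM). BHMT in cerebellum averaged 1.51 CPM in BF, against 0.05 CPM in BM, 0.11 CPM in NF and 0.28 CPM in NM, which was not tested.

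GREB1 in ovary measured 12.5, 20.9, 21.3, 22.9 and 23.8 CPM in 5 BF, against 2.25 to 3.71 CPM in 6 NF (median 3.19). The 2 groups did not overlap, and the lowest BF was again BF_6841. GREB1 was higher in BF by 2.74 ± 0.20 on the log2 scale (edgeR, adjusted p = 4.70e-05), higher in 5 of 5 BF. GREB1 was called under all 18 alternatives run for this comparison, with values between 2.67 and 2.88. The ovary library of BF_1816, left out by the study, had 28.2 CPM.

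In ovary 6 of the 7 other genes had the sign they had in adrenal for BF against NF, and KLK1 had the opposite one. The share of all genes with the same sign in both tissues was not computed, so nothing is read from this count. None of the 7 passed the threshold in edgeR. AFF2 ranged from 89.6 to 142 CPM in BF, against 26.4 to 81.0 CPM in NF, with no overlap (1.26 ± 0.26, adjusted p = 0.0315). PEG10 ranged from 698 to 1231 CPM in BF, against 338 to 778 CPM in NF, with an overlap through NF_0525 (0.87 ± 0.20, adjusted p = 0.0455). DPEP1 ranged from 5.00 to 9.58 CPM in BF, against 9.35 to 18.1 CPM in NF, and the highest BF was BF_6841 (-0.93 ± 0.25, adjusted p = 0.0780). DESeq2 called these 3 (adjusted p = 0.000245, 0.00175 and 0.00913). PRRG1 (0.35 ± 0.15), BHMT (0.49 ± 0.35), PKNOX2 (-0.29 ± 0.12) and KLK1 (-0.36 ± 0.39) had adjusted p between 0.254 and 0.703. Ovaries and adrenals came from the same females, so the values of both tissues are not independent.

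**Figure D5:**
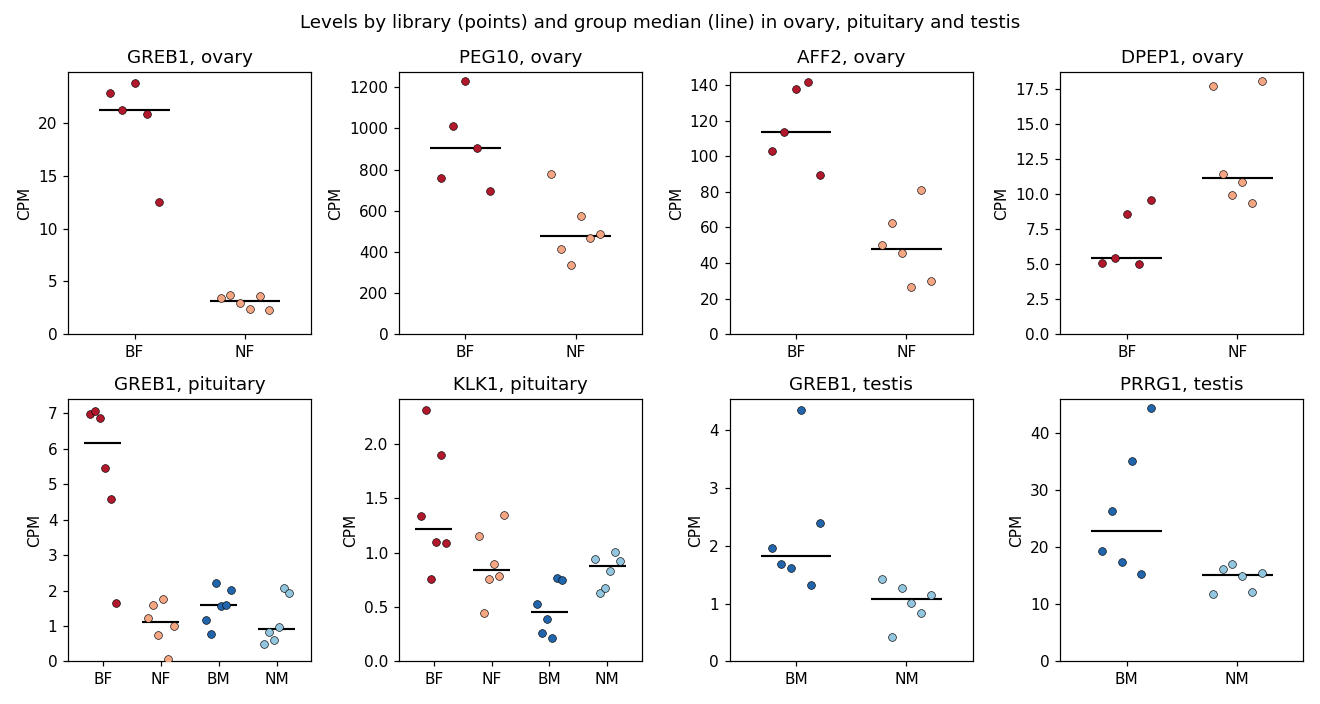
Levels in CPM by library (points) with the group median (line) of GREB1, PEG10, AFF2 and DPEP1 in ovary of BF and NF, of GREB1 and KLK1 in pituitary of the 4 groups, and of GREB1 and PRRG1 in testis of BM and NM. In ovary the 5 BF lie above all NF for GREB1 (12.5 to 23.8 against 2.25 to 3.71 CPM), and in pituitary 5 of 6 BF lie above every other library for GREB1.

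In pituitary GREB1 measured 4.59, 5.47, 6.88, 6.98 and 7.05 CPM in 5 BF and 1.63 CPM in BF_6841, against 0.08 to 1.75 CPM in NF, 0.79 to 2.20 CPM in BM and 0.50 to 2.08 CPM in NM. The BF with the lowest GREB1 was thus the same animal in adrenal, ovary and pituitary, and BF_1816 and BF_1090 were the highest in both adrenal and pituitary. BF differed from NF by 2.31 ± 0.47 on the log2 scale (edgeR, adjusted p = 0.139) and from BM by 1.80 ± 0.32 (adjusted p = 0.0281), so neither passed. Without BF_6841 the value for BF against BM passed (1.98, adjusted p = 0.00143). DESeq2 called both values (adjusted p = 0.000324 and 2.06e-05). With all groups of the tissue in 1 fit, edgeR also called the value for BF against NF (2.30, adjusted p = 0.0094). The difference between the sexes in the status effect, tested as an interaction, was 1.87 ± 0.61 (adjusted p = 0.884).

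KLK1 was low in pituitary. It ranged from 0.76 to 2.31 CPM in BF, against 0.22 to 0.76 CPM in BM, with the lowest BF just within the BM range and a log2 fold change of 1.54 ± 0.36 (adjusted p = 0.110), and the interaction of sex and status was 1.43 ± 0.45 (adjusted p = 0.882). PEG10, high in pituitary, showed values of 0.04 ± 0.16 for BF against NF and -0.05 ± 0.19 for BM against NM there.

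In testis GREB1 ranged from 1.32 to 4.34 CPM in BM, against 0.42 to 1.43 CPM in NM (1.15 ± 0.34, adjusted p = 0.0686), and PRRG1 from 15.3 to 44.3 CPM in BM, against 11.8 to 17.05 CPM in NM (0.88 ± 0.25, adjusted p = 0.0686). The groups overlapped for both genes, and neither was called by edgeR or DESeq2. In skin PKNOX2 ranged from 1.14 to 4.31 CPM in BM, against 1.02 to 31.4 CPM in NM (-2.47 ± 0.70, adjusted p = 0.101), where 4 of 6 NM lay above all BM. DESeq2 called it (adjusted p = 0.00485). Its interaction of sex and status in skin was 2.92 ± 0.97 (adjusted p = 0.158).

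Sex was compared in 7 tissues other than adrenal. Of 56 values for BF against BM 40 passed the filter and 0 were called, in comparisons where between 0% and 0.101% of genes were called, and of 56 for NF against NM 41 passed and 0 were called (between 0% and 0.0519%). At an unadjusted p below 0.05 there were 9 of 40 values for BF against BM (22.5%, against 14.9% of all values tested) and 2 of 41 for NF against NM (4.88%, against 6.41%). DESeq2 called 1 for BF against BM, GREB1 in pituitary, and 0 for NF against NM, and voom called 0 in both. The shares of all genes that DESeq2 and voom called were not computed here either. In a fit of all 4 groups edgeR called no interaction of sex and status for any gene in any of the 7 tissues. Of the 44 interaction values of the 8 genes, 5 had an unadjusted p below 0.05. The share over all genes was not computed for the interaction, so nothing is read from that count. Without the thyroid libraries labelled NF_3605 and NM_3295 the counts of called values for the 8 genes were the same in the status and sex comparisons.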

How the data were processed

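RNA of 10 tissues from 24 animals was sequenced without strand information as 215 single-end libraries. The deposited table holds counts, whole numbers of reads per gene, which the authors made by aligning with STAR 2.4.1d, discarding reads that matched several loci and counting with HTSeq; they were not normalized. As in the study, cerebellum of BM_5982 and ovary of BF_1816 were left out, which leaves 213 libraries of 9553515 to 20099804 counts. Groups came from the labels. Overlapping genes cannot be told apart by strand.

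Only the groups compared entered a fit, made in edgeR 4.0.16 (R 4.3.3) with filterByExpr, TMM scaling and robust quasi-likelihood F-tests, and p-values were adjusted by Benjamini-Hochberg over all genes of a comparison. A gene is called at an adjusted p below 0.01. Adrenal was compared with other tissues over animals with both, also with the animal as a block. Since the tissues come from the same animals, the pairing is by design; deviations of an animal from its group means in adrenal and another tissue had an r between -0.217 and 0.491 over 9942 genes. The sex by status interaction was tested in a fit of 4 groups. CPM levels share 1 TMM scale over the 213 libraries. DESeq2 1.42.0, voom (limma 3.58.1), RLE scaling, no filter, all groups in 1 fit, age as a covariate, kept-in libraries and leaving out each animal were the alternatives. The fits were tested on simulated data. Among 60 pairs of adrenal libraries of a group none was identical, and their chi-square over degrees of freedom was at least 12.76. Litter and colony were in no test.

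The members and lists were chosen with earlier results of these data known. The text names the 8 members, up to 3 called genes of each list (none was called), the 3 genes most like each member and the neighbours found in the count table; all other genes, markers of cell types named singly included, were picked after their values were seen. Of the 16339 rows 61 had no count. No sequences are printed, and the RefSeq table served only for gene order.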

Additional observations from a re-analysis of the deposited data

Results flagged for a closer look

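In 222 groups of 4 to 6 libraries (member, tissue and group), the highest or lowest value was compared with the others by its gap over the range of the group. Chance singles out about 1 in 20 groups of normally distributed values. Levels in CPM were not checked for this, so that share may not hold here. There were 18 values that stood out, and nothing is read from their number. In adrenal, PEG10 was far above the other NM in NM_3295 (527 CPM), and the same animal was far below the other NM for PEG10 in hypothalamus (758 CPM). GREB1 was far below the other BF in ovary of BF_6841 (12.5 CPM) and far above the other BM in testis of BM_3274 (4.34 CPM). In kidney BF_4772 stood apart from the BF for AFF2 (6.53 CPM) and DPEP1 (40.0 CPM), both low, and for PKNOX2 (6.61 CPM), which was high there and in its skin (14.4 CPM). NF_0525 was far above the NF in kidney for KLK1 (1395 CPM) and PEG10 (7.65 CPM) and in ovary for BHMT (25.5 CPM). BHMT was far above its group in skin of BF_6841 (36.5 CPM) and in heart of NF_4060 (29.4 CPM) and BM_6656 (4.38 CPM). AFF2 was low in kidney of NM_0713 (23.6 CPM) and high in pituitary of NM_4925 (25.3 CPM). KLK1 was high in thyroid of NF_2969 (6.13 CPM), and PEG10 in heart of NF_3605 (4.19 CPM).

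The 2 libraries left out of all comparisons were read too. The cerebellum library of BM_5982 lay above all NM cerebella for KLK1 (7.53 CPM), PEG10 (442 CPM), AFF2 (38.8 CPM), PRRG1 (27.0 CPM) and BHMT (1.32 CPM). The highest NM values were 3.19, 241, 19.5, 7.56 and 0.593 CPM. The ovary library of BF_1816 lay above all NF ovaries for GREB1 (28.2 CPM, highest NF 3.71 CPM) and AFF2 (141 CPM, highest NF 81.0 CPM).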

How the results depend on the processing

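For BF against NF and BF against BM in adrenal, each of the 8 genes kept the sign of its log2 fold change in 20 of 20 alternatives. These values chose the genes, and the alternatives reuse the same libraries, so nothing is read from the kept signs. The median size over the 8 for BF against BM was 1.63, and 1.25 without BF_1090 and BF_1816, a setting chosen after seeing the data; leaving out 1 animal gave 1.48 (without BF_1816) to 1.76 (without BF_6841).

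Counts of called genes over all genes moved between settings. For BF against BM edgeR called 56 genes, DESeq2 473, all 4 groups in 1 fit 203, no scaling beyond library totals 15 and age as a covariate 12. After seeing the data 2 further settings were added, which gave 5 genes without BF_1090 and BF_1816 and 1 with the medulla sum as a covariate. Leaving out 1 animal gave 3 (without BM_1400 or BM_3274) to 117 (without BF_6841). For BF against NF edgeR called 0, DESeq2 125, all groups in 1 fit 44, and limma-voom and RLE scaling 1 each, with 0 to 2 on leaving out 1 animal (2 without BF_4121). For BM against NM edgeR called 0 and DESeq2 13. For NF against NM edgeR called 3, DESeq2 25 and all groups in 1 fit 7, with 3 to 5 on leaving out 1 animal. Of the list genes, 0 by edgeR became 10 by DESeq2, 3 in 1 fit and 0 to 3 on leaving out 1 animal (3 without BF_6841) for BF against BM, 4 and 1 for BF against NF by DESeq2 and in 1 fit, and 1 by DESeq2 for BM against NM.

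In the other tissues the 1 status call became 6 with DESeq2 and 2 with all groups in 1 fit, and the 0 sex calls became 1 with DESeq2 and 0 to 1 on leaving out 1 animal (1 without BF_6841). For adrenal against other tissues the replicate block (pairing by animal) gave 62 calls, and other settings between 59 and 63. In non-breeders alone KLK1 against hypothalamus turned to -0.028. The causes of these shifts were not tested. Genes with few reads, such as KLK1 and GREB1 outside adrenal, limit what a count of 0 calls can show.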
